A study of Mus musculus with 6 samples.

Results

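The scavenger receptors of macrophages were followed in MLL-AF9 transformed mouse HSPCs, that is, blood stem and progenitor cells that carry an oncogene found in acute leukemias, the fusion of MLL with AF9. The genes were chosen by name from the count table: Marco, Msr1, Cd163, Mrc1, Cd36, Scarb1, Scarb2, Stab1 and Cd68, and all 9 were found among the 23337 counted genes. Polyadenylated RNA came from 3 libraries of cells in pro-lymphoid culture (replicates 1, 5 and 6) and 3 libraries of cells in pro-myeloid culture (replicates 2, 3 and 4). Both cultures carry the oncogene, so there is no untransformed control. The strain and age of the mice, the cytokines or feeder cells of each culture and the number of transformed lines are not given in the labels, and neither is whether the libraries came from separate cultures. The p-values therefore rest on library-to-library spread that may be technical in part or in full.

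Scavenger receptors are surface and endosomal proteins with which phagocytes take up modified lipoproteins, microbes, dying cells and cell debris. They are grouped by structure rather than by descent: the collagen-like class A (Marco, Msr1), the class B proteins that span the membrane at both ends (Cd36, Scarb1, Scarb2), the cysteine-rich hemoglobin receptor Cd163, the lectin Mrc1, the multidomain Stab1 and the mucin-like lysosomal Cd68. Mature tissue macrophages use them broadly, and several are also made by endothelium, liver or other cells. Their levels in the transformed progenitors are shown here per library, as CPM (the gene's counts scaled to a common library size), with edgeR's TMM factors applied to the library totals.

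The receptors did not move together. Marco and Cd163 were near the floor of detection in pro-myeloid culture and clearly present in pro-lymphoid culture. The RNA is from whole cultures, in which fewer cells of a type and less RNA per cell cannot be told apart. Scarb1 moved the other way, at 120 ± 9.15 CPM in pro-lymphoid and 294 ± 31.6 CPM in pro-myeloid culture (SD, n = 3 each). Scarb2 and Cd68 stood at like levels in both cultures, Stab1 differed by less than its spread allowed a call, and Msr1, Mrc1 and Cd36 had too few counts to enter the test. Of the 6 genes tested, 2 rose, 1 fell and 3 did not pass (edgeR quasi-likelihood test, adjusted p under 0.05). Over all 12477 genes tested, 38.6% were called, 17.4% as higher and 21.3% as lower in pro-lymphoid culture. The values of the cultures did not overlap for 3 of the 6 tested receptors, against 53.5% of all tested genes (26.4% higher and 27.2% lower in pro-lymphoid culture). Neither share sets the receptors apart from the rest of the table.

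**Figure D1:**
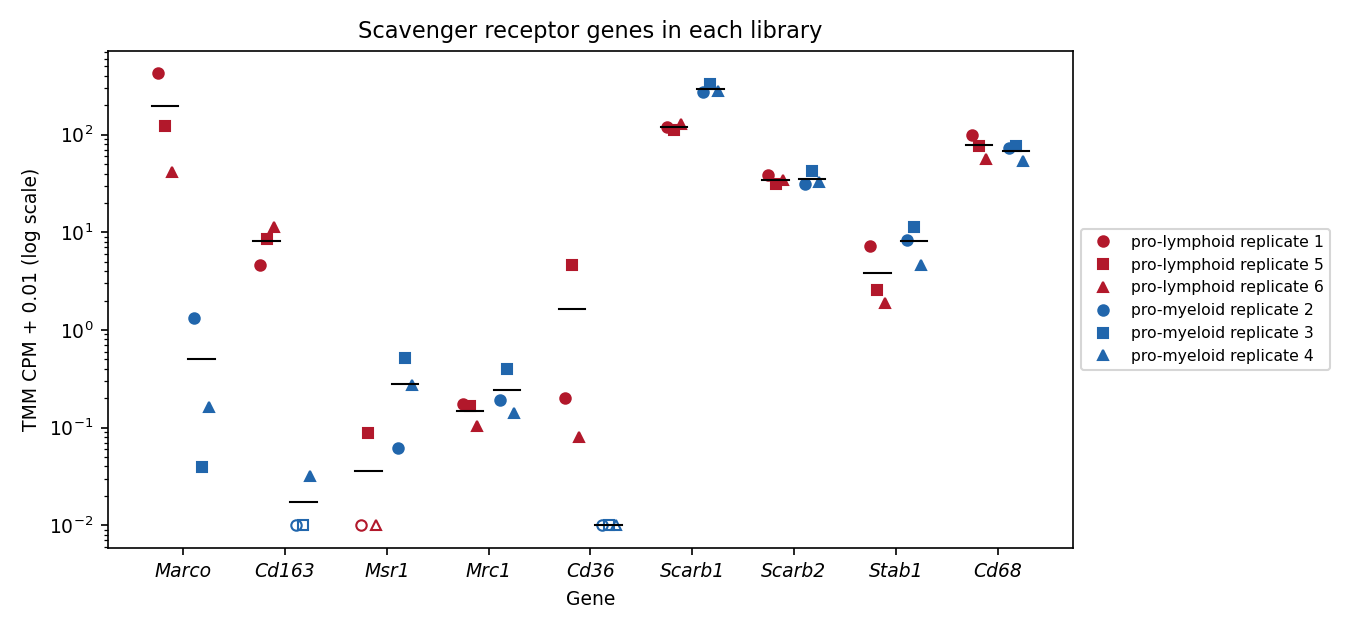
Level of the 9 scavenger receptor genes (x axis) as TMM CPM with 0.01 added (log y axis) in each of the 3 pro-lymphoid libraries (red, left of each pair) and the 3 pro-myeloid libraries (blue, right), with a bar at each mean and open symbols for 0 counts. Marco and Cd163 are far higher in all pro-lymphoid libraries, Scarb1 is lower there, and Cd68 and Scarb2 overlap between the cultures.

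Marco, a class A receptor of macrophages that binds bacteria and inhaled particles through a cysteine-rich domain, had the widest range in CPM of all 9 genes. It stood at 425, 122 and 41.0 CPM in pro-lymphoid replicates 1, 5 and 6, against 1.30, 0.0296 and 0.152 CPM in pro-myeloid replicates 2, 3 and 4. The lowest pro-lymphoid library was thus far above the highest pro-myeloid one, while libraries within a culture differed 10.4-fold in pro-lymphoid and 44.0-fold in pro-myeloid culture. The log2 fold change was 8.63 ± 1.24 (SE, edgeR adjusted p = 0.00191). Single libraries weighed on its size: it was 7.36 without pro-lymphoid replicate 1, 8.88 without replicate 5 and 9.11 without replicate 6, and 10.89, 8.14 and 8.13 without pro-myeloid replicates 2, 3 and 4, with adjusted p-values of 0.00197 to 0.0118. Of the 58 pro-myeloid counts, 50 came from replicate 2. Per kb of counted exon, the Marco level lay above that of 93.4% of tested genes in pro-lymphoid culture and above 6.75% of them in pro-myeloid culture.

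Cd163, the receptor by which macrophages clear complexes of hemoglobin and haptoglobin, was lower in level than Marco and more even between libraries. It had 169, 327 and 483 counts in pro-lymphoid replicates 1, 5 and 6, against 0, 0 and 1 count in pro-myeloid replicates 2, 3 and 4. On the CPM scale this was 4.58, 8.55 and 11.2 CPM, against 0, 0 and 0.0217 CPM. No pro-lymphoid library came near the pro-myeloid ones. The ratio of summed counts was 981, with an exact 95% counting interval of 176 to 38782 that covers counting error only, and the log2 fold change was 9.46 ± 0.88 (SE, edgeR adjusted p = 0.000408). Without pro-myeloid replicate 4, the only pro-myeloid library with a count, the fitted value was 11.28 (adjusted p = 0.00500), which is then set against 0 counts. Within pro-lymphoid culture the order of the libraries was opposite to that of Marco: replicate 1 was the highest for Marco and the lowest for Cd163, and replicate 6 the reverse.

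Both genes that rose are shown with the 300 bases around the annotated start (250 before and 50 after it), beside Cd68, which was abundant in both cultures. The sequences are from RefSeq on GRCm38.p6, the assembly of mm10, for Marco at chr1:120504975-120505274 (minus strand), Cd163 at chr6:124304401-124304700 (plus strand) and Cd68 at chr11:69666121-69666420 (minus strand). Capitals mark matches on either strand to GAGGAA, the letters of a PU.1 site, and to TGACTCA, those of an AP-1 site. PU.1 is the central transcription factor of macrophage development, and AP-1 is the Fos and Jun dimer.
Marco promoter: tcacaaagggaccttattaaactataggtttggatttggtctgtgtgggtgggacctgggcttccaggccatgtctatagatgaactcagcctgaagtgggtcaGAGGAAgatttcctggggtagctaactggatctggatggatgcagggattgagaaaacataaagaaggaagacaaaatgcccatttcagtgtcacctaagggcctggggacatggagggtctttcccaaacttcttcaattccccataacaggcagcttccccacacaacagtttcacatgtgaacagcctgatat
Cd163 promoter: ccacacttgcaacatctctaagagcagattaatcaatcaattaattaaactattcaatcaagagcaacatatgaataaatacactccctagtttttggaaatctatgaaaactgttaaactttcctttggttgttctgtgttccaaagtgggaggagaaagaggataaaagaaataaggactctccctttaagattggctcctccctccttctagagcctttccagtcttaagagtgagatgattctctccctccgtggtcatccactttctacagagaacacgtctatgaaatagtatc
Cd68 promoter: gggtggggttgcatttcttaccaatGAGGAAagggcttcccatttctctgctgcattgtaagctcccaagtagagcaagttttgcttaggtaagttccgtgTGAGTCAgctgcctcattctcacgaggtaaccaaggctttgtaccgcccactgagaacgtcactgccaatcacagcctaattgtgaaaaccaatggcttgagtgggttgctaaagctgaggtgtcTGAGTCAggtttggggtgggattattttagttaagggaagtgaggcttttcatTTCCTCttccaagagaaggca
Distances are from the start in RefSeq, which for Marco and Cd68 is not the start in the counting annotation. The counted start of Marco (120505084) lies within its window, and that of Cd68 (69666062) lies outside it. The Marco window held GAGGAA once, starting 146 bases before the annotated start. In the Cd68 window GAGGAA occurred at 225 bases before the start and, on the opposite strand, after it, and TGACTCA occurred on the opposite strand at 149 and 24 bases before it. In the Cd163 window none of the 7 motifs searched was found, which says only that these letters are not in it. The windows of 4 of the 7 receptors in the table held GAGGAA (Marco, Mrc1, Stab1 and Cd68), a motif found in 28.3% of all 32851 windows. TGACTCA was in 1 of the 7 and in 5.2% of all windows. TGCTGA, which is only part of a Maf recognition element, was in 3 of the 7 (Cd36, Scarb2 and Stab1) and in 19.5%. The letters of a C/EBP site (TTGCGNAA), an IRF site (GAAA, any 2 bases, GAAA), a PPAR direct repeat (AGGTCA, any 1 base, AGGTCA) and an LXR direct repeat (AGGTCA, any 4 bases, AGGTCA) matched 0 of the 7, against 0.798%, 3.44%, 0.0396% and 0.0152% of all windows. A match is a description of the sequence and was not tested for binding.

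Scarb1, the class B receptor of high-density lipoprotein that takes up cholesteryl esters without degrading the particle, was the only one of the 6 tested receptors that fell. It stood at 120, 111 and 129 CPM in pro-lymphoid replicates 1, 5 and 6, against 272, 330 and 280 CPM in pro-myeloid replicates 2, 3 and 4. Every pro-lymphoid library was below every pro-myeloid one, and the libraries of a culture lay close together. The log2 fold change was -1.29 ± 0.12 (SE, edgeR adjusted p = 0.000312), and without any single library it ran from -1.35 to -1.20, with adjusted p-values of 0.000351 to 0.00257. Per kb, Scarb1 had the highest level of the 9 genes in pro-myeloid culture and the third highest in pro-lymphoid culture.

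Scarb2, known as LIMP-2, is a membrane protein of lysosomes and is made by most cells. It stood at 38.6, 31.1 and 34.3 CPM in pro-lymphoid replicates 1, 5 and 6, against 31.1, 42.7 and 32.4 CPM in pro-myeloid replicates 2, 3 and 4. The groups overlapped, and the log2 fold change was -0.028 ± 0.17 (SE, edgeR adjusted p = 0.909). Its sign changed with the scaling and with the libraries used, so no direction is given.

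Cd36, the class B receptor of long-chain fatty acids and oxidized lipoprotein, was detected mainly in 1 library. It had 7, 175 and 3 counts in pro-lymphoid replicates 1, 5 and 6, and 0 counts in each pro-myeloid library. Summed over the groups it was at least 61.8-fold higher in pro-lymphoid culture, taking 3 counts as the group's floor, but only at least 4.94-fold without pro-lymphoid replicate 5. It did not pass the filter on low counts, and without that filter it was not called (edgeR adjusted p = 0.114). Cd36 is also made by endothelium, platelets and erythroid progenitors. The summed markers of erythroid cells and megakaryocytes stood at 7.32, 6.54 and 10.2 CPM in pro-lymphoid replicates 1, 5 and 6. In pro-myeloid replicates 2, 3 and 4 they stood at 3.75, 5.54 and 5.63 CPM. Those of endothelium, nearly all Pecam1, were lower in pro-lymphoid culture, at 305, 241 and 231 CPM against 343, 339 and 318 CPM. Within that list the endothelial cadherin gene Cdh5 rose, at 2.28, 3.03 and 2.86 CPM against 0.703, 0.266 and 0.260 CPM. The macrophage genes C1qb and C1qc had most of their counts in pro-lymphoid replicate 5, as Cd36 did. Of 5 tested genes of the erythroid list, 1 rose and 0 fell, against 17.4% and 21.3% of all tested genes. The gene that rose was adult beta-globin, listed as Beta-s, at 1.79, 2.56 and 2.49 CPM against 0 in each pro-myeloid library. Klf1 (log2 fold change -0.76) and Gp1ba (-0.65) were lower in pro-lymphoid culture without a call. The alpha-globin gene Hba-a1 had 0 counts in all libraries. The part of these cell types in the Cd36 counts was not tested.

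Cd68, or macrosialin, is a glycoprotein of late endosomes and lysosomes and a common stain for macrophages. It stood at 99.9, 76.2 and 56.9 CPM in pro-lymphoid replicates 1, 5 and 6, against 73.0, 77.0 and 53.5 CPM in pro-myeloid replicates 2, 3 and 4. The groups overlapped and gave no call (log2 fold change 0.20 ± 0.23, SE, edgeR adjusted p = 0.529), with a sign that turned to -0.026 without pro-lymphoid replicate 1. Within pro-lymphoid culture its libraries had the same order as those of Marco, over a range of 1.76-fold against 10.4-fold.

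Stab1, which encodes stabilin-1, an endocytic receptor of macrophages and sinusoidal endothelium, stood at 7.16, 2.54 and 1.88 CPM in pro-lymphoid replicates 1, 5 and 6. In pro-myeloid replicates 2, 3 and 4 it stood at 8.33, 11.3 and 4.64 CPM. Only pro-lymphoid replicate 1 reached into the pro-myeloid range. The log2 fold change of -1.07 ± 0.54 gave no call (SE, edgeR adjusted p = 0.158), whereas without pro-lymphoid replicate 1 it was -1.87 and was called (adjusted p = 0.0242). Of its counted exon bases, 1.35% overlap Nt5dc2.

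Msr1 and Mrc1, both typical of tissue macrophages, were barely detected. Msr1, the class A receptor of modified low-density lipoprotein, had 0, 3 and 0 counts in pro-lymphoid replicates 1, 5 and 6, against 2, 17 and 12 counts in pro-myeloid replicates 2, 3 and 4. The ratio of pro-myeloid over pro-lymphoid counts was 10.3 (exact 95% counting interval 3.22 to 52.7), and the ranges overlapped. Without the filter on low counts it was not called (edgeR adjusted p = 0.0701). Mrc1, the macrophage mannose receptor, had 6, 6 and 4 counts in pro-lymphoid culture, against 7, 13 and 6 counts in pro-myeloid culture, and was not called without the filter either (edgeR adjusted p = 0.476). With 3 counts corresponding to 0.0650 to 0.0888 CPM, these values lie near what a library could show.

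Compared per kb of counted exon, the order of the 9 genes differed between the cultures. In pro-lymphoid culture it was Marco (98.7 ± 102 CPM per kb), Cd68 (77.0 ± 21.4), Scarb1 (38.7 ± 2.95), Scarb2 (16.4 ± 1.79), Cd163 (1.81 ± 0.745), Stab1 (0.483 ± 0.360), Cd36 (0.410 ± 0.654), Mrc1 (0.0259 ± 0.00727) and Msr1 (0.00654 ± 0.0113; SD, n = 3). Neighbours that did not differ beyond their ranges were Marco and Cd68, and each of the neighbours from Stab1 down. In pro-myeloid culture the order was Scarb1 (94.9 ± 10.2 CPM per kb), Cd68 (67.3 ± 12.5), Scarb2 (16.8 ± 3.02), Stab1 (1.01 ± 0.420), Marco (0.249 ± 0.354), Msr1 (0.0680 ± 0.0565), Mrc1 (0.0437 ± 0.0253), Cd163 (0.00161 ± 0.00279) and Cd36 at 0 (SD, n = 3). There, Stab1 and Marco, Marco and Msr1, Msr1 and Mrc1, and Cd163 and Cd36 overlapped with their neighbour. Of the summed level per kb of the 9 genes, Marco made up 57.5%, 32.1% and 15.0% in pro-lymphoid replicates 1, 5 and 6, and at most 0.371% in a pro-myeloid library. Scarb1 made up 10.4%, 18.8% and 30.3% in the same pro-lymphoid libraries, and 49.7%, 52.0% and 56.7% in pro-myeloid replicates 2, 3 and 4.

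**Figure D2:**
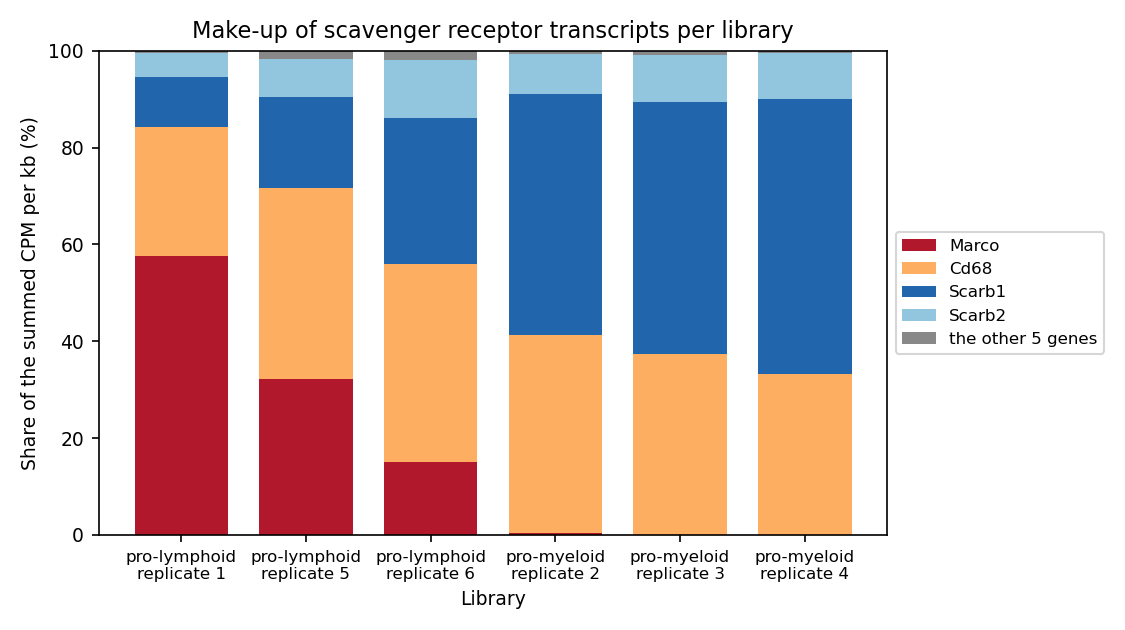
Share of the summed CPM per kb of the 9 scavenger receptor genes (y axis, percent) taken by Marco, Cd68, Scarb1, Scarb2 and the other 5 genes together in each library (x axis). Marco takes 15.0 to 57.5% in the pro-lymphoid libraries, on the left, and Scarb1 takes 49.7 to 56.7% in the pro-myeloid libraries, on the right.

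The genes most like the called receptors were found by the smallest root mean square difference in log2 CPM over the 6 libraries, after the mean of each gene was subtracted. For Cd163 these were Apcdd1 (0.29), Insm1 (0.48) and Gem (0.57), and for Scarb1 they were Cdadc1 (0.053), Ankrd12 (0.068) and Ing3 (0.072). For Marco the nearest genes were Synpo2 (1.36), Havcr2 (1.46) and Etv5 (1.58), at a much larger distance. Predicted genes were left out, and no shared role is drawn from the likeness.

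Other scavenger receptors were mostly lower in pro-lymphoid culture where they were called. Among 11 of 20 such genes that could be tested, 1 was called higher, 5 were called lower and 5 had no call. As shares, 9.09% were higher and 45.5% lower, against 17.4% and 21.3% of all tested genes. With a library left out, 3 to 6 were called lower, the fewest without pro-lymphoid replicate 6. The median log2 fold change was -1.31, against -0.000195 for all tested genes. Colec12, a collectin with a collagen-like stem, stood at 3.17, 2.07 and 1.91 CPM in pro-lymphoid replicates 1, 5 and 6, against 49.0, 131 and 76.3 CPM in pro-myeloid replicates 2, 3 and 4 (log2 fold change -5.17, edgeR adjusted p = 0.000186). Olr1, the lectin-like receptor of oxidized lipoprotein, stood at 3.80, 0.105 and 0.233 CPM, against 76.3, 57.3 and 68.1 CPM (log2 fold change -5.65, edgeR adjusted p = 0.00243). Scarf2 (log2 fold change -4.14) and Ly75, a lectin of the mannose receptor family (-3.53), fell as well, the Ly75 call being lost in 6 of 13 alternatives, among them leaving out any 1 library except pro-myeloid replicate 3. The apoptotic cell receptor Mertk, with 3 counts summed over pro-lymphoid culture and 43 over pro-myeloid culture, fell too (pro-myeloid over pro-lymphoid ratio 14.3, exact 95% counting interval 4.58 to 72.1; edgeR adjusted p = 0.0120). Cxcl16, a chemokine that also binds oxidized lipoprotein, rose (log2 fold change 2.34, edgeR adjusted p = 0.0494) but lost its call in 8 of 13 alternatives, among them leaving out any 1 library except pro-myeloid replicate 2. Lrp1, which takes up many ligands, stood at 132, 52.3 and 52.0 CPM, against 146, 308 and 131 CPM, without a call (edgeR adjusted p = 0.0605).

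Genes that handle the cholesterol and fatty acids taken up by Scarb1 and Cd36 moved in both directions. Among the 17 that were tested, 3 were higher (1 without pro-lymphoid replicate 6 or pro-myeloid replicate 4), 7 lower and 7 without a call. As shares, 17.6% were higher and 41.2% lower, against 17.4% and 21.3% of all tested genes. The median log2 fold change was -0.34. Soat1, which esterifies cholesterol for storage, had a log2 fold change of -1.66 (edgeR adjusted p = 0.000374), and Plin2, which coats lipid droplets, one of -1.49 (edgeR adjusted p = 0.000407). Lipoprotein lipase (Lpl) fell, with a log2 fold change of -2.28. Fabp5, a fatty acid carrier, rose, with one of 2.10 (edgeR adjusted p = 0.000916). The cholesterol exporter gene Abcg1 (log2 fold change 2.47) and the apolipoprotein gene Apoe (0.85) rose as well. The Abcg1 call was lost without any 1 library except pro-myeloid replicate 2, and the Apoe call without pro-lymphoid replicate 1 or 6 or pro-myeloid replicate 4.

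Genes of heme and iron handling, into which the cargo of Cd163 feeds, were also split. Among the 13 that were tested, 3 were higher, 4 lower and 6 without a call (1 to 4 higher and 2 to 3 lower with a library left out). As shares, 23.1% were higher and 30.8% lower, against 17.4% and 21.3% of all tested genes. The median log2 fold change was 0.027. Spic, the transcription factor gene of iron-recycling macrophages, summed to 141 counts in pro-lymphoid culture and 4 in pro-myeloid culture (log2 fold change 5.02, edgeR adjusted p = 0.000807). Hmox1, which breaks down heme, went the other way from Cd163, with a log2 fold change of -0.87 (edgeR adjusted p = 0.0346), a call lost without pro-lymphoid replicate 5 or 6 or pro-myeloid replicate 2 or 3. Ferritin heavy chain (Fth1, log2 fold change 0.91, call lost without pro-myeloid replicate 4) and the iron importer Slc11a2 (0.53, call lost without any 1 library except pro-myeloid replicate 2) rose. Bach1, a heme-sensing repressor, fell, with a log2 fold change of -0.67. Slc40a1, the iron exporter, summed to 16 counts in pro-lymphoid culture and 26 in pro-myeloid culture and was not tested.

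Lysosomal genes, whose products share the compartment of Scarb2 and Cd68, were largely lower in pro-lymphoid culture. All 18 were tested: 0 were called higher (1 without pro-myeloid replicate 3), 13 lower and 5 had no call, against 21.3% lower among all tested genes. They had a median log2 fold change of -0.80. Lamp2 stood at 207, 179 and 166 CPM in pro-lymphoid replicates 1, 5 and 6, against 682, 810 and 783 CPM in pro-myeloid replicates 2, 3 and 4 (log2 fold change -2.04, edgeR adjusted p = 7.02e-05). The tetraspanin gene Cd63 (log2 fold change -5.94, edgeR adjusted p = 0.000438), the transcription factor gene Mitf (-1.89) and the hexosaminidase gene Hexa (-0.76) fell. With a minimum absolute log2 fold change of 1, 6 of the 13 calls were left.

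**Figure D3:**
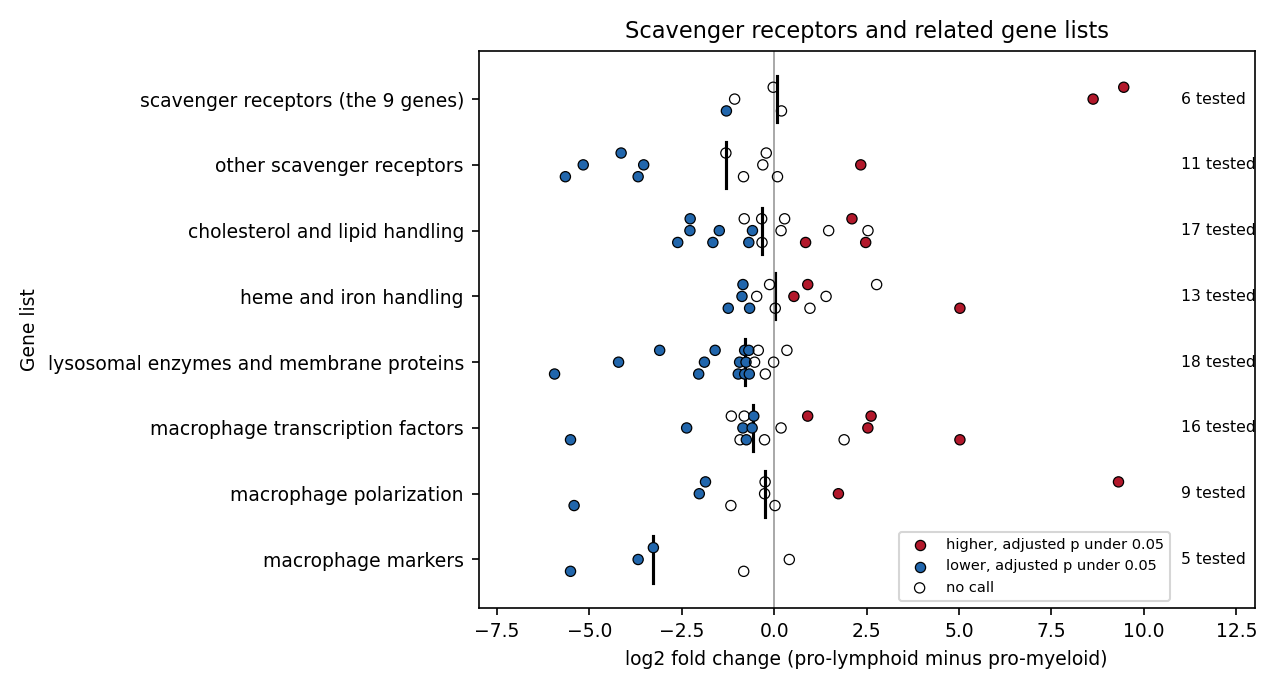
Log2 fold changes (x axis, pro-lymphoid minus pro-myeloid culture) of the tested genes of the 9 scavenger receptors and 7 related lists (y axis; tested genes counted at the right), filled red where higher and blue where lower at an edgeR adjusted p under 0.05, open where not called, with a bar at each median. Marco and Cd163 lie at 8.63 and 9.46 on the right, while no gene of the lysosomal list is called as higher; the Il10 point at 9.31 is a fitted value against 0 counts.

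Transcription factor genes of macrophages and genes of macrophage polarization gave no single direction. Among 16 tested factor genes, 4 were higher (1 to 5 with a library left out), 6 lower and 6 without a call. As shares, 25% were higher and 37.5% lower, against 17.4% and 21.3% of all tested genes. The median log2 fold change was -0.58. Maf, a transcription factor gene of tissue macrophages, stood at 2.96, 6.85 and 2.72 CPM in pro-lymphoid replicates 1, 5 and 6, against 1.28, 0.207 and 0.520 CPM in pro-myeloid replicates 2, 3 and 4 (log2 fold change 2.62, edgeR adjusted p = 0.0136), a call lost without pro-myeloid replicate 4. Cebpb (log2 fold change -2.37) and Stat3 (-0.85), which act in myeloid activation, fell. Among 9 tested of 18 polarization genes, 2 were higher (1 to 3 with a library left out), 3 lower (2 to 5) and 4 without a call. Here 22.2% were higher and 33.3% lower, beside the same shares of all tested genes. The median log2 fold change was -0.26. Il10, the gene of an anti-inflammatory cytokine, summed to 237 counts in pro-lymphoid culture and 0 in pro-myeloid culture, which is at least 79.2-fold higher with 3 counts as the group's floor. Tnf rose (log2 fold change 1.74), a call that held with all 6 libraries or without pro-myeloid replicate 2 alone. The transglutaminase gene Tgm2 (log2 fold change -5.41) and Il4ra, a receptor chain for interleukin 4 (-1.86), fell. Arg1, a marker of alternative activation, summed to 12 counts in pro-lymphoid culture and 11 in pro-myeloid culture, and Retnla had 0 in both.

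Markers of mature macrophages were mostly too low to test. Of 12 macrophage markers 5 were tested, and of these 0 rose, 3 fell (Mertk and Fcgr1 among them) and 2 did not pass. Among all tested genes 17.4% rose and 21.3% fell. The calls of Mertk and Fcgr1 were lost without pro-lymphoid replicate 6. All 7 untested markers had few counts, with more in pro-lymphoid than in pro-myeloid culture. C1qb, a complement subunit gene, summed to 120 counts in pro-lymphoid culture, 108 of them in replicate 5, and 5 in pro-myeloid culture. Its partner C1qc summed to 53 counts, 48 of them in replicate 5, against 4 in pro-myeloid culture, and C1qa to 2 against 0. The sialic acid receptor gene Siglec1 summed to 20 counts in pro-lymphoid culture, 15 of them in replicate 1, against 6 in pro-myeloid culture. Cd5l summed to 11 counts against 0, Timd4 to 2 against 0 and Vsig4 to 1 against 0. Csf1r, the receptor of the macrophage growth factor, stood at 409, 181 and 181 CPM in pro-lymphoid replicates 1, 5 and 6, against 579, 536 and 251 CPM in pro-myeloid replicates 2, 3 and 4. Adgre1, which encodes F4/80 and is listed as Emr1, stood at 96.9, 48.6 and 30.7 CPM, against 26.0, 76.6 and 30.5 CPM. Both were present in all libraries without a call.

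Marker sums differed between the libraries in which the receptors differed. The 12 macrophage markers together stood at 506, 236 and 213 CPM in pro-lymphoid replicates 1, 5 and 6, against 614, 635 and 294 CPM in pro-myeloid replicates 2, 3 and 4, nearly all of it Csf1r and Adgre1. The 7 monocyte markers stood at 1566, 929 and 538 CPM, against 2048, 4009 and 2825 CPM. Of these 7, 0 rose and 3 fell, against 17.4% and 21.3% of all tested genes. Those that fell were Fn1 (log2 fold change -7.07), Ly6c2 (-1.92) and F13a1 (-2.03), the last without a call when any 1 library except pro-myeloid replicate 2 was left out. Within pro-lymphoid culture the monocyte sum had the order of Marco, Stab1 and Cd68, opposite to that of Cd163. Such orders rest on only 3 libraries and were not tested. Between cultures the monocyte sum was lower in pro-lymphoid culture, where Marco and Cd163 were higher. Of 6 tested dendritic cell markers, 5 rose and 0 fell, against 17.4% and 21.3% of all tested genes. The whole list summed to 567, 948 and 720 CPM, against 53.1, 150 and 90.4 CPM. Most of each pro-lymphoid sum was Flt3, also a progenitor marker, at 389, 511 and 401 CPM, against 0.729, 30.7 and 10.2 CPM in pro-myeloid culture. Of 5 tested neutrophil markers, 0 rose and 5 fell, beside the same shares of all tested genes. The whole list summed to 4.65 to 45.0 CPM, against 1697 to 5247 CPM. The dendritic cell genes led by Bst2 (log2 fold change 1.10), Siglech (6.58), Flt3 (4.98) and Clec9a (2.70) included 3 to 7 calls when a library was left out. The Siglech call was lost with limma-voom, and the Clec9a call with DESeq2 and without pro-myeloid replicate 4. Clec9a summed to only 41 counts in pro-lymphoid culture, against 6 in pro-myeloid culture. Xcr1 of the same list summed to 65 against 59 counts, without a call (log2 fold change 0.14). The neutrophil genes Cebpe (-8.71) and Elane (-9.61) had the smallest adjusted p-values (7.66e-06 and 4.14e-05). The part of these cell types in the receptor levels was not tested. Of the 8 stromal markers, Col1a2, Col3a1, Dcn and Lum had 0 counts in all libraries, and of the 8 endothelial markers Kdr, Emcn and Clec14a did, the endothelial sum resting on Pecam1. Markers of B cells, T and NK cells, erythroid cells and megakaryocytes, and mast cells and basophils summed to at most 54.1 CPM in any library. Among them Vpreb1, Ms4a2 and Mcpt8 fell and Klrb1c rose, while Col1a1 of the stromal list fell; the calls of Vpreb1 and Klrb1c were lost in 6 of 13 alternatives. Progenitor markers summed to 1422 to 1684 CPM, against 1453 to 1536 CPM, while single genes moved in both directions. All 7 were tested, and 3 were called higher and 4 lower. As shares, 42.9% were higher and 57.1% lower, against 17.4% and 21.3% of all tested genes. Flt3 (log2 fold change 4.98), Kit (1.74) and Cd34 (1.39) rose. Hoxa9 (-0.95), Meis1 (-1.44), Myb (-1.05) and Ptprc (-0.38) fell. Kit stood at 83.5 ± 16.8 CPM in pro-lymphoid and 24.9 ± 15.5 CPM in pro-myeloid culture (SD, n = 3 each). The Kit call was lost without pro-lymphoid replicate 6, and the Ptprc call in 9 of 14 alternatives.

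**Figure D4:**
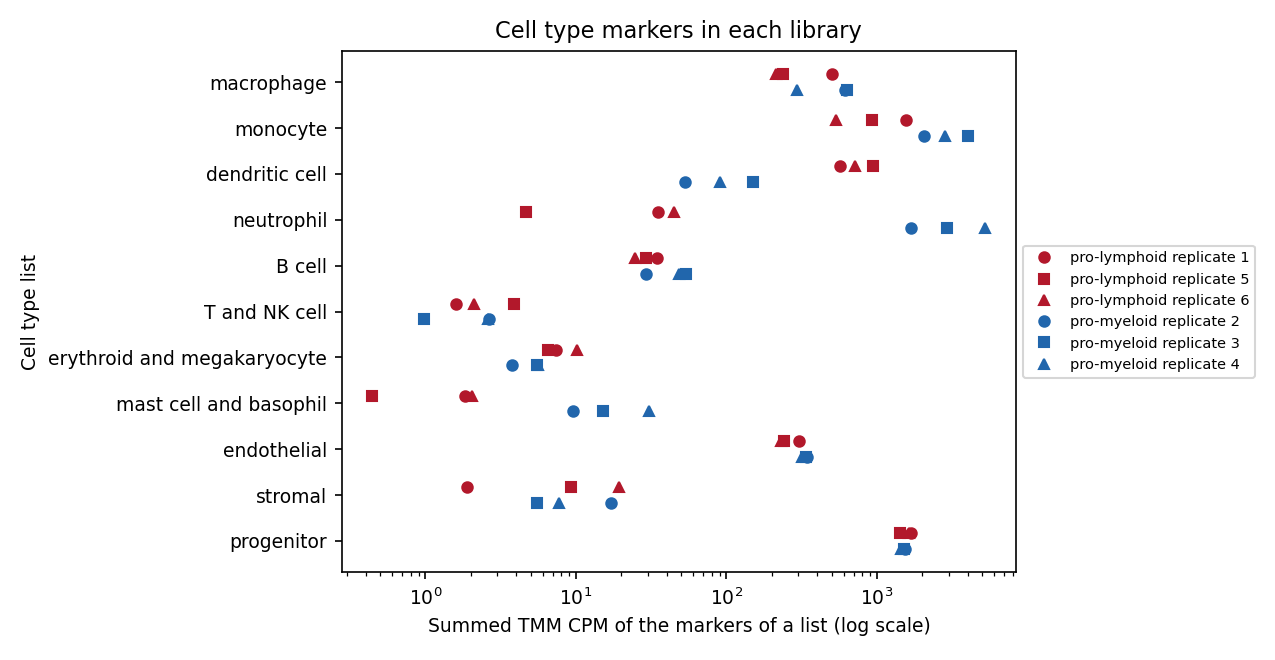
Summed TMM CPM of the markers of 11 cell type lists (x axis, log scale) in each library, with the 3 pro-lymphoid libraries (red) above the 3 pro-myeloid libraries (blue) in each list (y axis). Monocyte sums are 538 to 1566 CPM in pro-lymphoid and 2048 to 4009 CPM in pro-myeloid culture, and dendritic cell sums are 567 to 948 CPM in pro-lymphoid and 53.1 to 150 CPM in pro-myeloid culture.

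In genome coordinates (mm10, counting annotation), Marco lies on chromosome 1 from 120474538 to 120505084 with 17 exon blocks, and Cd163 on chromosome 6 from 124304651 to 124330527, also with 17. Scarb1 (125277087 to 125341094), Scarb2 (92443873 to 92505608) and Cd36 (17781690 to 17888959) lie far apart on chromosome 5, so the class B genes are not neighbours. Msr1 lies on chromosome 8 from 39581700 to 39642678, Mrc1 on chromosome 2 from 14229414 to 14332023, Stab1 on chromosome 14 from 31139017 to 31168641 and Cd68 on chromosome 11 from 69664371 to 69666062. Counted exon lengths ran from 1008 bases for Cd68 to 7995 bases for Stab1, which is why levels were compared per kb, and no exon base of the other 8 genes was shared with another counted gene.

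The libraries held 34972488 to 46724382 counts. The values of each gene rest on the exons of all its transcripts together, so isoforms were not told apart.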

How the data were processed

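Per the file headers, reads were counted by the authors with featureCounts 1.5.1 over exons of UCSC mm10 genes, using primary alignments only and ignoring strand, and the deposited table holds raw counts per gene and the counted exon length. DESeq2, TopHat, Bowtie and Trimmomatic were also used, per the submitters' processing notes, with settings not given in the sources used here. Per the labels' protocols, the RNA was selected for poly(A) and libraries were made with a NEBNext Ultra kit.

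Groups were taken from the labels. The test was that of edgeR 4.0.16 in R 4.3.3: filterByExpr, TMM scaling, a quasi-likelihood fit with bias-adjusted deviances and a two-sided F test, with Benjamini-Hochberg adjustment over all 12477 genes tested. Log2 fold changes give pro-lymphoid over pro-myeloid culture, and their SE is derived from the F statistic. Counting intervals are exact, and the floor is 3 counts; as the reads carry no molecular identifiers, both cover counting error only. Of 185 list symbols, 5 were found under an older symbol and Ly6g had no match.

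Alternatives were other scalings, filters on low counts, DESeq2 1.42.0, limma-voom (limma 3.58.1), a minimum fold change and each library left out. The genes, lists and tests were chosen with earlier results of these data known. Of each list, the tested genes with the smallest adjusted p (up to 4) were named. Others (Ly75, Cxcl16, Lrp1, Abcg1, Apoe, Hmox1, Slc40a1, Maf, Arg1, Adgre1, the untested macrophage markers, Xcr1, Myb, Ptprc and Kit) were chosen after their values were seen. Some genes of the marker lists that the rule covers are given only within the counts. A few list genes are not reported here by name.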

Additional observations from a re-analysis of the deposited data

How the results depend on the processing

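Marco, Cd163 and Scarb1 kept their direction and call under all 14 alternatives, with log2 fold changes of 7.36 to 10.89, 8.71 to 11.28 and -1.35 to -1.20. The number of receptors called as lower was 1 to 2 when a library was left out, because Stab1 was called without pro-lymphoid replicate 1; its log2 fold change ran from -1.87 to -0.73. That of Scarb2 was 0.016 with upper-quartile scaling, 0.024 without scaling factors and -0.11 to 0.13 without single libraries, and that of Cd68 was -0.026 to 0.38 without single libraries; neither was called. Over all genes, 3086 to 5385 were called without single libraries, and 2620 when an absolute log2 fold change of 1 or more was also required. The causes were not tested. No paired analysis was possible because no replicate number occurs in both cultures. A library left out leaves 2 against 3 samples, Msr1 and Mrc1 are limited by their low counts, and Cd36 by its detection mainly in 1 library.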
